A study of Mus musculus with 12 samples.

Results

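Acetylated histone H4 (H4ac) was mapped by chromatin immunoprecipitation and sequencing in C2C12, an established mouse myoblast line, and the regions described here lie close beside H4ac sites of MLX-WT cells but were listed in MLX-DN cells alone. The cells carried lentiviral constructs of MLX-WT or of MLX-DN, the latter read here as a dominant-negative form, since the labels do not spell it out and call these samples MLX down in one field. Each group had 3 H4ac libraries with 1 deposited peak list each and 3 input libraries. The empty-vector and non-targeting shRNA controls named in the labels are not analysed here, so neither group can be set against cells without an MLX construct. Peak names carry a tag for glucose being present in both groups.

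The regions were chosen by the lists themselves. Merging every overlapping or adjoining peak across the 6 lists gave 31891 regions (mm9), and a library counts as listing a region if it has a peak there. For 1945 regions, 6.10% of all, this held in the 3 MLX-DN libraries and in none of MLX-WT. Of these, 537 had an MLX-WT peak within 1000 bp of an edge, 1.68% of all regions, and are called flanking regions below. The other 1408 had none and are called distant regions. The contrast between the groups selected these regions, so values that set MLX-DN against MLX-WT are descriptions and carry no test.

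The number of flanking regions depends on the rule. It was 339 with a limit of 500 bp and 668 with a limit of 2000 bp, 263 where peaks needed a −log10 q of at least 5, and 45 with all lists cut to the length of the shortest. Leaving out MLX-DN replicate 1 gave 1060 and leaving out MLX-DN replicate 3 gave 890, since fewer libraries then had to list a region. Where 50% of a region had to be covered it was 1048, and where peaks of at least 2 MLX-WT libraries had to lie near it was 234. Nothing in the labels says whether the replicates were separate cultures, so the spread between them may be technical.

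MLX is a helix-loop-helix leucine zipper protein that binds DNA with the glucose-responsive partners MondoA and ChREBP, and also pairs with repressors of the MXD family. Acetylation neutralises the charge of lysines in the histone H4 tail and is found on nucleosomes at active promoters and enhancers. At such elements the acetylated nucleosomes often lie on both sides of a stretch with few nucleosomes, so that 1 element can give neighbouring peaks. No annotation of the mm9 build was used here, so no region is tied to a gene and no sequence is printed.

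The 6 lists held 15201 to 24811 peaks in MLX-DN and 5385 to 13652 in MLX-WT. The depth recovered from the lists was 3.34 to 3.90 reads per 250 bp window in MLX-DN and 3.299 to 3.84 in MLX-WT. The smallest −log10 p listed was 3.51 to 3.74 in MLX-DN and 3.79 to 4.22 in MLX-WT. The MLX-DN lists were thus longer and went to a weaker p at similar depth.

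The strongest flanking regions show the arrangement most clearly. They were ranked by the lowest percentile of −log10 q that a region reached within the 3 MLX-DN lists. The first lay on chromosome 8 from 93947430 to 93948353 and was 924 bp wide. It had a fold over background of 5.95, 6.09 and 5.78 in MLX-DN replicates 1, 2 and 3, from 75, 85 and 93 reads at the summit. The 3 values lay close together, and its lowest percentile was 97.9. The site beside it, from 93948620 to 93950034, was listed by all 3 MLX-DN libraries with peaks of 1406, 1329 and 1230 bp. MLX-WT replicate 2 alone listed that site among the MLX-WT libraries, with a peak of 367 bp and a fold of 3.47, and this peak began 776 bp from the flanking region.

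The next strongest, on chromosome 17 from 44637752 to 44639159, had folds of 6.29, 6.38 and 5.23 and peaks of 1162, 1391 and 1012 bp in MLX-DN replicates 1 to 3. Its neighbouring site had a fold of 9.97 in MLX-DN replicate 2, against 3.86 and 3.54 in the other two. The single MLX-WT peak there, in replicate 2, was 261 bp wide with a fold of 3.90 and lay 351 bp away. On chromosome 8 from 14538852 to 14539824 the folds were 6.62, 7.43 and 6.15, the highest of these 3 regions. The MLX-WT peak beside it came from replicate 1, at 792 bp, and was 250 bp wide with a fold of 4.12. In each of these 3 cases every MLX-DN list held a peak at the region and another at the site beside it, and a single MLX-WT list held a peak, shorter than any of those, on part of that site.

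**Figure D1:**
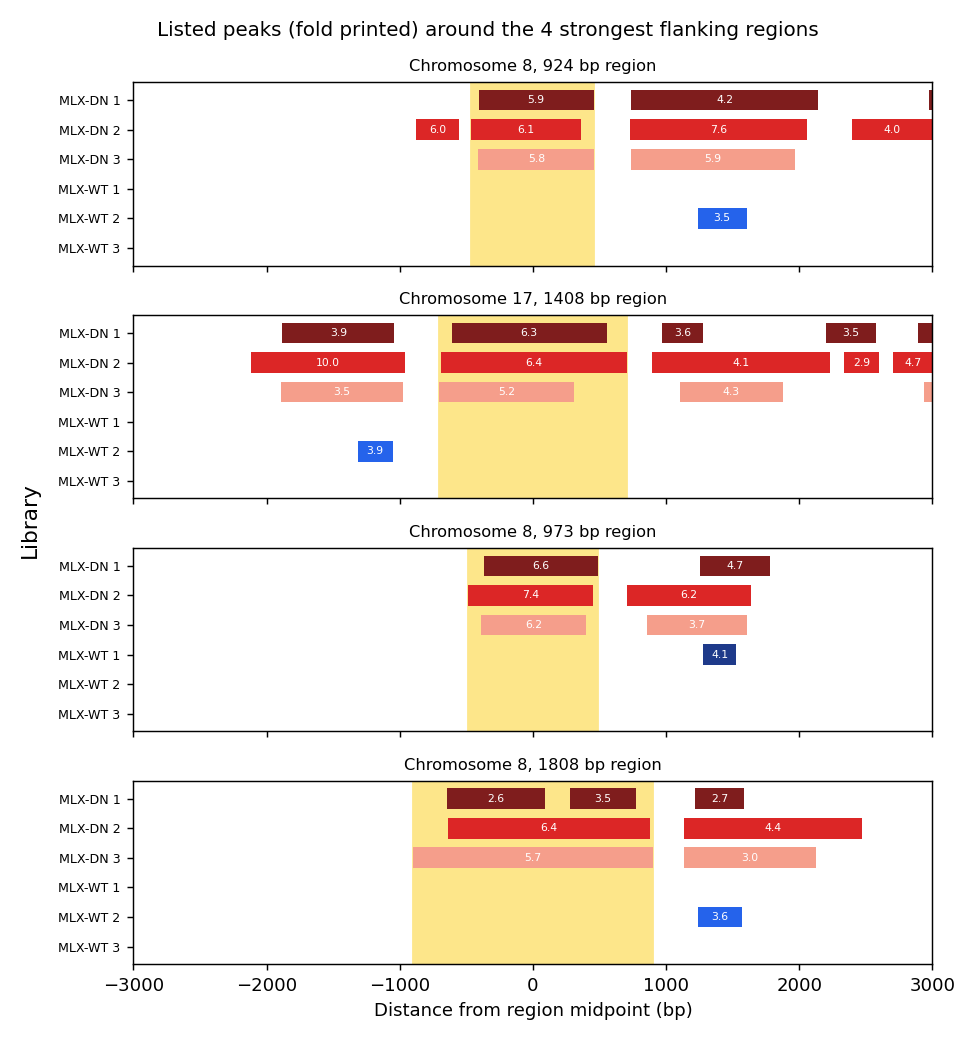
Peaks listed by each of the 6 H4ac libraries around the 4 strongest flanking regions, by distance in bp from the region's midpoint; bars are peaks, the numbers in them are the authors' folds, and the shaded span is the flanking region. The MLX-DN libraries list the shaded region and the site beside it, whereas 1 MLX-WT library lists a short part of the neighbouring site in each panel.

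The fourth, on chromosome 8 from 96411947 to 96413754, was 1808 bp wide and was split into 2 peaks in MLX-DN replicate 1. Its folds were 3.52, 6.38 and 5.67, with MLX-DN replicate 1 below the other libraries. A region of 1520 bp on the same chromosome (11691438 to 11692957) gave folds of 6.89, 6.08 and 5.31, and MLX-WT replicates 1 and 2 had peaks 436 and 651 bp away. On chromosome 17 from 71102313 to 71103028 the folds were 5.48, 7.12 and 5.23, and here all 3 MLX-WT libraries had a peak nearby, at 653, 365 and 660 bp, with folds of 4.66, 4.49 and 3.88. The remaining 4 were on chromosome 8 from 87250983 to 87253054 and from 81818264 to 81818695, on chromosome 2 from 155674830 to 155675915, and on chromosome 11 from 72974704 to 72975353. Their folds ran from 3.33 to 5.63. All 3 MLX-DN libraries listed the neighbouring site of each of the 10, and 6 of the 10 had peaks of a single MLX-WT library within 1000 bp.

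Of these 10 regions, 6 were on chromosome 8, and control background moved with that. On chromosome 8 the background at regions listed by all 6 libraries, relative to the library mean, was 1.26 times higher in MLX-DN than in MLX-WT. The 30 flanking regions of chromosome 8 had a median of 41.5, 46 and 43.5 reads at the summit in MLX-DN replicates 1, 2 and 3, against 29, 33 and 32 at the 507 elsewhere. Their median background was 9.06, 8.11 and 10.3 reads, against 6.66, 6.49 and 7.60. Folds were 4.23, 4.31 and 3.55 on chromosome 8 and 3.89, 4.31 and 3.70 elsewhere, so reads and background were both higher there in every MLX-DN library, while the fold was higher in replicate 1, lower in replicate 3 and 4.311 against 4.307 in replicate 2. The part of the background in the rank of these regions was not tested.

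The widest flanking regions were on chromosomes 8 and 17. The region on chromosome 8 from 87250983 was 2072 bp wide and was split into 2 peaks in every MLX-DN list, with folds of 3.33, 4.13 and 3.60. Its neighbouring site, 3295 bp wide, was covered by MLX-DN peaks of 2844, 3295 and 3127 bp. All 3 MLX-WT libraries listed that site too, with strongest peaks of 266, 328 and 994 bp. On chromosome 17 the region from 27292866 to 27294793 lay between MLX-WT peaks on both sides and had folds of 3.45, 4.68 and 3.69. The region from 29198595 to 29200408 had folds of 5.15, 4.14 and 2.79 and a single MLX-WT peak, of replicate 2, at 289 bp. The region from 7824354 to 7826099 had folds of 5.71, 3.94 and 6.62, with peaks of MLX-WT replicates 2 and 3 at 872 and 901 bp. The 3 libraries differed in which gave the highest fold at these regions.

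Some flanking regions lay beside sites that were among the strongest of the MLX-WT lists. On chromosome 6 the site from 124959144 to 124960180 had folds of 5.42, 10.97 and 9.85 in MLX-WT replicates 1 to 3 and 7.20, 6.34 and 8.01 in MLX-DN replicates 1 to 3. The groups overlapped there. The flanking region, from 124958374 to 124958805, began at most 452 bp from the MLX-WT peaks and had folds of 4.92, 4.50 and 3.80 in MLX-DN. On chromosome 10 the site from 127472643 to 127473655 had folds of 3.26, 9.04 and 5.07 in MLX-WT and 5.88, 9.43 and 5.80 in MLX-DN, again overlapping. Its flanking region, from 127471924 to 127472531, had folds of 4.80, 5.82 and 3.28. On chromosome 2 the site from 153171550 to 153172522 had folds of 5.21, 9.27 and 10.71 in MLX-WT and 6.41, 7.57 and 8.09 in MLX-DN. The flanking region from 153170770 to 153171267 had folds of 3.76, 5.12 and 4.34, below the site beside it in each MLX-DN library. The other 2 regions of this kind were on chromosome 6 from 115626784 to 115627403 and chromosome 3 from 95462190 to 95462535, with folds of 2.56 to 4.64. All 3 MLX-WT libraries had a peak within 1000 bp of each of these 5 regions.

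Most flanking regions lay within 500 bp of an MLX-WT peak. The median distance was 405 bp, with quartiles of 271 and 624 bp. Of the 537, 116 lay within 250 bp, 223 beyond that and up to 500 bp, 127 beyond 500 and up to 750 bp, and 71 farther away. The nearest MLX-WT peak was on the lower-coordinate side of 264 regions and on the higher side of the rest. At 516 regions no other merged region lay in between. In the MLX-DN lists the summits of the flanking region and of the neighbouring site were a median of 1010, 955.5 and 1053 bp apart in replicates 1, 2 and 3. The closest MLX-WT peak was 5 bp from a region on chromosome 14 (9041653 to 9042028), with folds of 2.72, 4.27 and 3.23 in MLX-DN. Next came a region on chromosome 5 (145952450 to 145953001), at 15 bp with folds of 2.43, 3.20 and 2.22, and one on chromosome 17 (23813032 to 23813697), at 25 bp with folds of 2.91, 4.58 and 3.49.

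Folds just inside and just outside the distance limit overlapped. Just inside were regions on chromosome 13 (63241268 to 63242022) and chromosome 4 (66490020 to 66490803), both at 997 bp, and on chromosome 15 (36419322 to 36419788) at 1000 bp. Their folds were 2.93 to 6.46. Just outside, at up to 1003 bp, were regions on chromosome 5 (35967888 to 35968556), chromosome 11 (70005243 to 70005750) and chromosome 16 (44239392 to 44240128). Their folds were 2.70 to 4.59.

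**Figure D2:**
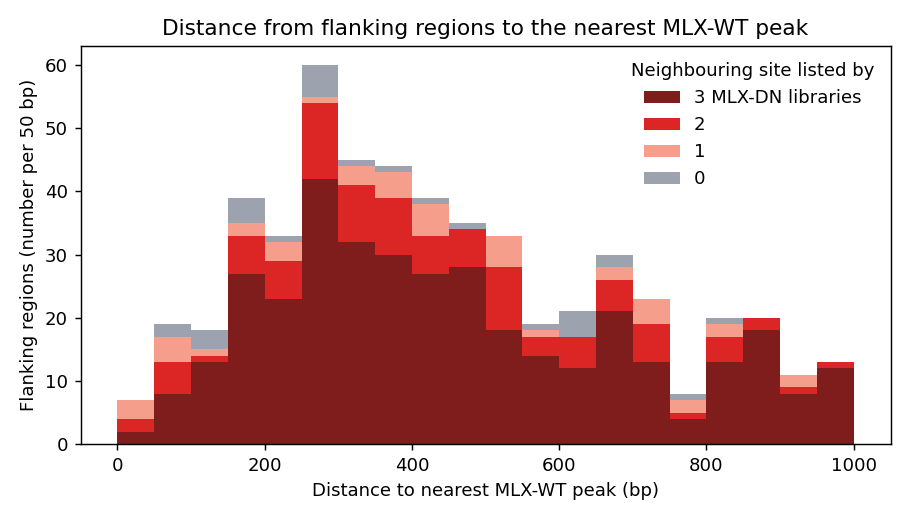
Number of flanking regions per 50 bp of distance to the nearest MLX-WT peak, coloured by how many MLX-DN libraries listed the neighbouring site that holds this peak. Of the 537 regions 223 lie beyond 250 and up to 500 bp, and at 365 the neighbouring site was listed by all 3 MLX-DN libraries.

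The neighbouring site was mostly acetylated in MLX-DN cells as well. All 3 MLX-DN libraries listed it at 365 of the 537 regions (68.0%), 2 of them at 100, 1 at 44 and none at 28. In MLX-WT the site was held by fewer libraries: 290 regions had a site listed by 1 MLX-WT library, 144 by 2 and 103 by all 3. All 6 libraries listed it at 102 regions. The matching shares over all regions listed in MLX-WT were not computed, so these counts are not called particular to flanking regions. Peaks of MLX-WT replicates 1, 2 and 3 lay within 1000 bp of 160, 436 and 267 regions. The order is that of the list lengths, and these peaks were 2.95%, 3.41% and 2.93% of the 3 lists.

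Most flanking regions had another MLX-DN peak nearby, counting a peak of any MLX-DN library. Such a peak lay within 1000 bp of 524 of the 537. It did so at 892 of the 1408 distant regions (63.4%). The rule gave flanking regions a site nearby and denied distant regions one, so these shares are not on equal terms. Of the 499 regions with MLX-WT peaks on 1 side, 162 (32.5%) had another MLX-DN peak on the opposite side. Over all 537 regions, a peak of MLX-DN replicates 1, 2 and 3 covered the point 1000 bp from the midpoint on the side away from the nearest MLX-WT peak at 8.57%, 14.7% and 9.50%. MLX-WT cover at that point is held low by the choice of sides and is not compared. On the side of the nearest MLX-WT peak the shares at 1000 bp reached 45.6%, 60.7% and 50.7% for MLX-DN replicates 1 to 3, and 12.8%, 38.0% and 26.4% for MLX-WT replicates 1 to 3. On this side, which the MLX-WT peaks define, the lowest MLX-DN share exceeded the highest MLX-WT share. The same held for the bases covered by the whole lists. These were 7.28, 13.1 and 8.32 Mb in MLX-DN replicates 1 to 3 and 2.26, 6.49 and 4.13 Mb in MLX-WT replicates 1 to 3. The order of the shares is therefore not particular to flanking regions.

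**Figure D3:**
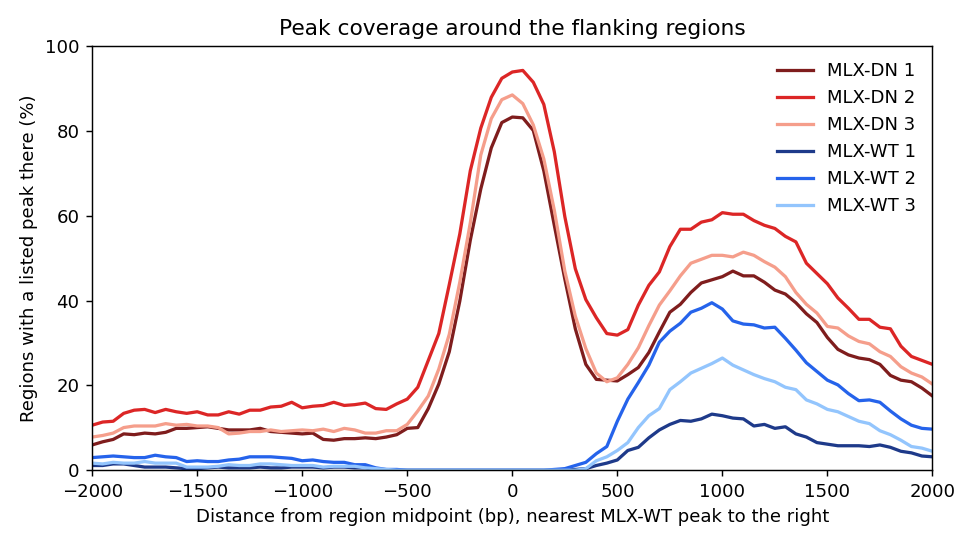
Share of the 537 flanking regions (%) with a listed peak at each distance in bp from the region's midpoint, 1 line per library, with each region turned so that its nearest MLX-WT peak lies to the right. The MLX-DN lines peak at the midpoint, which is 0 in MLX-WT by the choice of regions, as MLX-WT cover to the left is held low by the choice of sides, and stay above the MLX-WT lines at 1000 bp to the right, where MLX-DN replicate 2 reaches 60.7% and MLX-WT replicate 2 reaches 38.0%. Each MLX-DN list also covers more bases in total than any MLX-WT list.

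Within the MLX-DN lists the flanking regions were of middle rank and their neighbouring sites ranked higher. The median percentile of the flanking regions was 46.8, 60.1 and 49.2 in replicates 1, 2 and 3. That of the neighbouring sites was 69.8, 76.8 and 74.2. In the MLX-WT lists the neighbouring sites stood at 46.4, 46.5 and 44.3. These medians cover different sites, since 404, 472 and 429 sites were listed by MLX-DN replicates 1, 2 and 3 and 169, 425 and 273 by MLX-WT replicates 1, 2 and 3. At the sites of all 6 libraries beside 102 regions, the medians were 88.4, 91.0 and 90.9 for MLX-DN and 56.7, 78.0 and 69.1 for MLX-WT. At the other 3006 regions of all 6 libraries they were 84.0, 90.0 and 85.4 for MLX-DN and 64.3, 84.3 and 76.5 for MLX-WT. The groups did not overlap at the former and overlapped at the latter. Percentiles depend on the length of the list, so they cannot show a change between lists of different length. Where a MLX-DN library listed both, the flanking region ranked below its neighbour at 278 of 413 pairs in replicate 1, 326 of 484 in replicate 2 and 315 of 442 in replicate 3. Of the 365 regions with both listed throughout, 188 ranked below in all 3 libraries and 20 above in all 3. The rule chose the neighbours for holding an MLX-WT peak and the flanking regions for lacking one, which already favours this order. Other adjoining pairs of regions were not counted, so the order is not called particular to flanking regions. The upper 25% of each MLX-DN list contained 16 of the flanking regions in common.

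**Figure D4:**
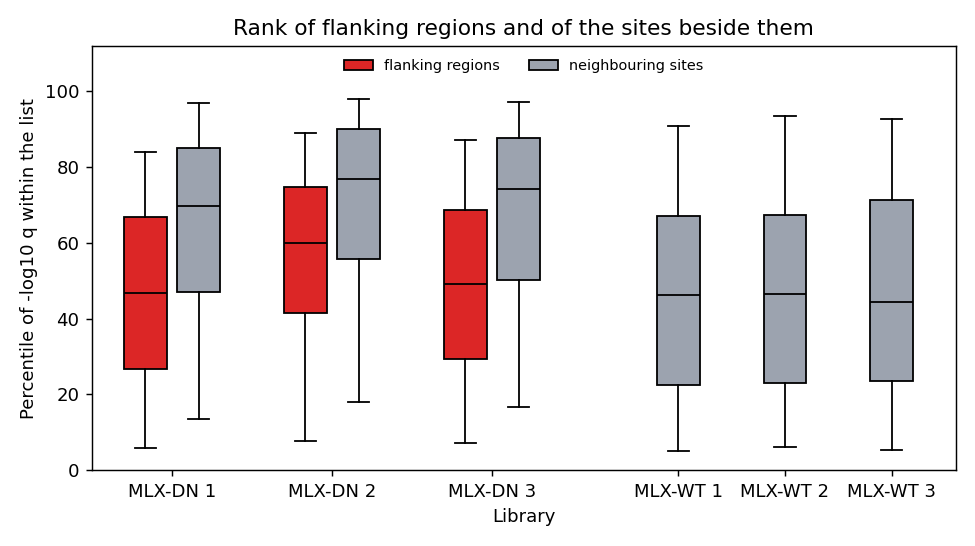
Percentile of −log10 q within each library's own list for the flanking regions (MLX-DN libraries) and for the neighbouring sites (all 6 libraries); boxes give the quartiles and median, whiskers the 5th and 95th percentiles over regions. The median of the neighbouring sites is 69.8 to 76.8 in MLX-DN and 44.3 to 46.5 in MLX-WT, and that of the flanking regions is 46.8 to 60.1. The lists differ in length, so these percentiles cannot show a change between the groups.

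At the neighbouring sites that all 6 libraries listed, MLX-DN peaks were wider and came closer to the flanking region. They numbered 101 and lay beside 102 flanking regions. The median peak width there was 641, 837 and 705.5 bp in MLX-DN replicates 1 to 3 and 391, 531 and 462.5 bp in MLX-WT replicates 1 to 3. The lowest MLX-DN value exceeded the highest MLX-WT value. The means were 728 ± 99.9 bp and 461.5 ± 70.0 bp (SD, n = 3), a ratio of 1.58, with no test for the reason given above. At the 3006 other regions of all 6 libraries the ratio was 1.297, with medians of 601, 781.5 and 624 bp against 417, 627 and 503.5 bp, and there the groups overlapped. The edge facing the flanking region lay 342.5, 286 and 333 bp from it in MLX-DN and 516, 427.5 and 438 bp in MLX-WT. This distance was measured at the same sites, so it does not stand apart from the width. The median fold at these sites was 5.03, 5.73 and 4.87 in the MLX-DN libraries, set against 3.87, 4.90 and 4.21 in the MLX-WT libraries, and these overlapped. Control background beneath the same sites, over the genome-wide level of each library, stood at 2.87, 2.42 and 2.96 for MLX-DN, compared with 2.52, 1.88 and 2.09 for MLX-WT, which overlapped as well. Its part in the widths was not tested.

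Among the regions of MLX-DN alone, the difference in width between flanking and distant ones changed sign with the measure. The merged regions had a median of 673 bp where flanking (upper quartile 899 bp) and 667 bp where distant (888 bp). The median width of their strongest peak was 392, 497 and 415 bp in MLX-DN replicates 1 to 3, against 395, 498 and 422.5 bp at distant regions. The log2 difference was −0.013 ± 0.012 (SD over n = 3 libraries; exact sign-flip test, two-sided, p = 0.25, the smallest that 3 libraries allow). It took the other sign where means replaced medians (0.011) and without MLX-DN replicate 2 (0.033). Where 50% of a region had to be covered it was 0.51, with regions that an MLX-WT peak covers in part counted as flanking. Under the main rule an MLX-DN region wide enough to reach a nearby MLX-WT peak is left out. This limits width beside MLX-WT peaks but not at distant regions, so the widths are not on equal terms.

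Flanking regions ranked slightly higher than distant ones in the lists of MLX-DN replicates 1, 2 and 3, where the distant regions stood at a median percentile of 43.6, 56.9 and 47.1. The difference was 2.83 ± 0.636 percentile points, higher in 3 of 3 libraries (exact sign-flip test, two-sided, p = 0.25). It was 0.341 points at a −log10 q of at least 5, with 2 of 3 libraries higher. It was 0.875 without MLX-WT replicate 2 and 1.74 without MLX-DN replicate 1. Where 50% of a region had to be covered it was 18.6, with regions that an MLX-WT peak covers in part counted as flanking. The limit that the rule sets on width beside MLX-WT peaks may bear on rank as well, and its part was not tested. Folds were 3.89, 4.31 and 3.70 at flanking and 3.86, 4.26 and 3.70 at distant regions, a log2 difference of 0.0093 ± 0.0087 with 2 of 3 libraries higher (exact sign-flip test, two-sided, p = 0.50). Its sign changed under 6 of 11 alternatives.

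The MLX-WT peaks beside flanking regions ranked lower than the other peaks of their lists. The difference of median percentiles was −4.42, −7.25 and −9.05 points in MLX-WT replicates 1, 2 and 3, a mean of −6.91 ± 2.33 (SD, n = 3; lower in 3 of 3; exact sign-flip test, two-sided, p = 0.25). It was negative under all 11 alternatives, between −7.76 and −3.36. Their width differed by −0.036 ± 0.023 on the log2 scale (lower in 3 of 3, exact sign-flip test, two-sided, p = 0.25). The rule leaves out MLX-WT peaks that reach into the MLX-DN region beside them. Its part in the lower rank and width was not tested.

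The share of regions with an MLX-WT peak nearby was lower among those that a single MLX-DN library listed. Among regions with no MLX-WT library, an MLX-WT peak lay within 1000 bp of 20.7% of those listed by 1 MLX-DN library (exact 95% interval 19.95 to 21.5, 2261 of 10917). The share was 25.8% for 2 MLX-DN libraries (24.4 to 27.3, 919 of 3558) and 27.6% for all 3 (25.6 to 29.7). The intervals treat regions as independent and cover counting error only, not the spread between libraries. The difference between these shares was therefore not tested.

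Most flanking regions had more reads in MLX-DN than the weakest peaks of the MLX-WT lists needed. The median summit held 29, 33 and 32 reads in MLX-DN replicates 1, 2 and 3, over a background of 6.66, 6.75 and 7.60 reads, and the lowest held 13, 18 and 19. In all 3 MLX-DN lists, 522 of the 537 regions had a −log10 p above the smallest one listed in MLX-WT replicate 1, which had the strictest list. For each MLX-WT peak beside a region, the reads were computed that its library would have needed at the background of that peak. The median was 20 reads in MLX-WT replicate 1, 18 in replicate 2 and 17 in replicate 3. The MLX-DN reads, averaged and scaled to the depth of each MLX-WT library, reached this at 147 of 160, 433 of 436 and 257 of 267 regions. With the lowest MLX-DN library in place of the mean these were 128, 425 and 243. The MLX-WT background at the flanking regions themselves is not known, and reads below the listing threshold were not detectable in these lists. Listing by all 3 MLX-DN libraries chose these regions, which already favours high counts here. Distant regions were not counted in the same way, so these counts show nothing particular to flanking regions.

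Flanking regions were found on all 20 chromosomes of the lists. Chromosome 11 held 49 (9.12%), chromosome 4 held 46 (8.57%) and chromosome 17 held 40 (7.45%), while chromosome X held 2. Chromosome 11 held 9.18% of all regions listed by the 3 MLX-DN libraries and 6.39% of distant regions. For chromosome 4 these shares were 6.84% and 8.03%, and for chromosome 17 they were 5.19% and 5.82%. Chromosome 15 held 23 flanking regions (4.28%) and 5.95% of all MLX-DN regions. Control background at regions of all 6 libraries was taken relative to the library mean. It was more than 1.1 times higher in MLX-DN on 7 chromosomes (1, 3, 4, 5, 8, 9 and 12), with no overlap between the groups. On chromosomes 6, 10, 11, 14, 15, 18, 19 and X the groups were also apart, but with MLX-WT higher. The ratio of MLX-DN to MLX-WT was 0.79 on chromosome 15 and 0.92 on chromosome 11. The 7 chromosomes of higher MLX-DN background held 225 flanking regions (41.9%), 49.5% of distant regions and 38.8% of all MLX-DN regions. The part of background in these shares was not tested.

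**Figure D5:**
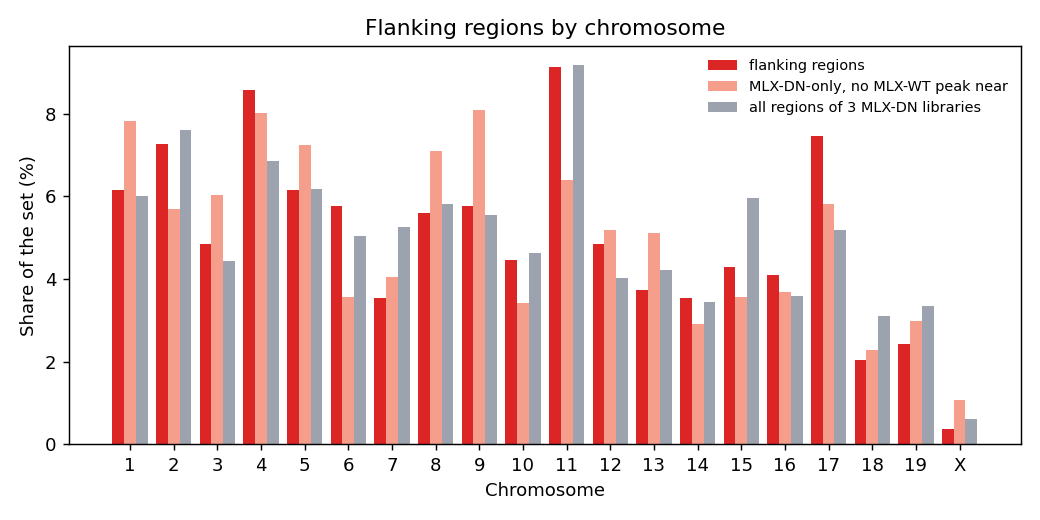
Share (%) of the 537 flanking regions, of the 1408 distant regions and of all regions listed by the 3 MLX-DN libraries on each chromosome. Chromosome 11 holds 9.12% of flanking and 6.39% of distant regions, and chromosome 9 holds 5.77% and 8.10%.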

How the data were processed

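Peak lists of the 6 H4ac libraries were analysed. Per the submitters' processing notes the build was mm9 and the tools included MACS2 2.0.9, R 2.14.0, SAMtools, Picard 1.65, CASAVA and BWA 0.5.9-r26. Their roles and settings are not given in the sources used. The authors deposited, per peak, a score, a ratio to background called fold here, and p-value and q-value as −log10. Each list came from 1 library. Merging, listing and distances (nearest base to nearest base) were computed with Python 3.11.15, numpy 2.4.6, pandas 2.3.3 and SciPy 1.17.1. Where a library had several peaks in a region the strongest was used. ChIP reads and background were recovered from fold and p as whole reads, at 100% of peaks within 0.001 of the −log10 p. Absolute read totals are unknown. Differences between kinds of region were taken within each library and tested over libraries with an exact sign-flip test. Scripts were tested on simulated data.

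The regions and comparisons were chosen with earlier results of these data known. Named regions followed a rule: the 10 highest in lowest percentile, the 5 widest, the 5 whose nearest MLX-WT peak ranked highest, and 3 at either end of the distances, with 3 beyond the limit. The alternatives were other distance limits, a stricter q, equal list length, a cover of 50%, at least 2 MLX-WT libraries near, means, and each library left out. Genes were not named, because the annotation at hand is of another build.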

Additional observations from a re-analysis of the deposited data

How the results depend on the processing

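The number of flanking regions, 537, became 339 at a limit of 500 bp, 45 at equal list length, 263 where −log10 q had to reach 5, 1048 with a cover of 50%, and 234 with at least 2 MLX-WT libraries near. It ranged from 557 to 1060 with 1 library left out. These settings change how many peaks or libraries enter. The log2 width difference between flanking and distant regions, −0.013, became 0.51 with a cover of 50% and 0.011 with means, and ranged from −0.028 to 0.033 with 1 library left out. The log2 fold difference, 0.0093, became −0.0083 at 500 bp and −0.015 at the stricter q, and ranged from −0.025 to 0.0034 with 1 library left out. The log2 width difference of MLX-WT peaks, −0.036, became 0.0016 at 500 bp. For width and fold, the cause of these changes of sign was not tested. The means of both rank differences kept their sign under all 11 alternatives run for them. For flanking against distant regions at the stricter q, MLX-DN replicates 1 to 3 gave 0.157, 1.96 and −1.095 points (exact sign-flip test, two-sided, p = 0.75). The exact sign-flip test cannot go below p = 0.25 with 3 libraries or p = 0.50 with 2. No paired analysis was possible because the contrast between the groups selected the regions, so no test between MLX-DN and MLX-WT was run that a replicate block could enter. The tests run are differences within each library. No listed peak rested on fewer than 13 reads, so weaker acetylation was not detectable.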

Other observations

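At 28 flanking regions (5.21%) the neighbouring MLX-WT site was listed by no MLX-DN library, so that the groups listed adjoining but separate stretches. The nearest MLX-WT peak came from replicate 2 at 19 of them, from replicate 3 at 6 and from replicate 1 at 3. The median distance was 296.5 bp, and the median percentile of these MLX-WT peaks within their lists was 27.4. The MLX-DN peaks at these regions stood at a median percentile of 43.0, 53.1 and 35.4 in replicates 1, 2 and 3. This subset was chosen after its values were seen.

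At 38 flanking regions (7.08%) MLX-WT peaks lay within 1000 bp on both sides, so that the MLX-DN peak lay between MLX-WT sites. Their median width was 613 bp, against 677 bp for regions with MLX-WT peaks on 1 side. The median fold was 3.88, 4.45 and 3.65 in MLX-DN replicates 1 to 3. Where peaks of all 3 MLX-WT libraries were near, which held for 92 regions, all MLX-DN libraries listed the neighbouring site at 88 (95.7%), against 171 of 303 (56.4%) where 1 MLX-WT library was near. The matching shares over all regions of 3 or of 1 MLX-WT libraries were not computed. This difference is therefore not called particular to flanking regions. Of the 524 neighbouring sites, 11 had 2 flanking regions and 1 had 3. The opposite direction started from 53 regions found in the 3 MLX-WT lists and absent from those of MLX-DN. Of these, 21 (39.6%) had an MLX-DN peak within 1000 bp, against 27.6% (537 of 1945) under the main rule. The MLX-DN lists are longer and cover more bases, so these shares are not on equal terms.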
